A study of Mus musculus with 9 samples.

Results

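Undiluted (100%) heptanal was compared with a 1% dilution of the same odorant, to describe what the higher concentration adds among the mRNAs recovered from mouse olfactory epithelium (OE) by immunoprecipitation of phosphorylated ribosomal protein S6 (pS6-IP). The comparison used 6 of the 9 mice of the series, chosen by their titles as the 3 mice given 100% and the 3 given 1% heptanal, and covered all 23607 genes of the count tables. Of these genes, 1248 were odorant receptor (OR) genes, taken as symbols that start with Olfr and a digit. All mice were C57BL/6 and were exposed singly for 1 hr, in a closed container, to filter paper carrying 100% heptanal, 1% heptanal or, for the remaining 3 mice, distilled water as the control. Each group had 1 mouse of postnatal day 22, 1 of day 21 and 1 of day 18, and in the study's methods the mice of a replication were littermates of the same sex. Values are therefore given in the order of days 22, 21 and 18, and mice of the same day form a pair.

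Heptanal is a straight-chain aldehyde with a fatty, green odor. Each mature olfactory sensory neuron (OSN) transcribes a single OR gene abundantly, and odor binding is passed through the G protein Golf, adenylyl cyclase III and a cyclic nucleotide-gated channel to depolarise the cell. Activity leads to phosphorylation of S6 on ribosomes and to transcription of immediate early genes. Neurons switch these on within minutes, and many of them encode transcription factors. The antibody pulls down ribosomes with phosphorylated S6 together with their mRNAs, so an mRNA is counted more often when more of it sits on such ribosomes, whatever the cell type. In these tissue samples, more cells of a type and more RNA or more S6 phosphorylation per cell cannot be told apart.

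The total estimated count per mouse was 5438494 to 9707592 over the 9 mice, and between 273 and 732 ORs had a count in a mouse. The 1% mouse of day 22 had the fewest OR counts, 10223 of a range that reached 64455, so the main OR values are also given without it. Copies made by PCR could not be told from separate molecules, so that intervals cover counting error only. Levels are given as CPM, the counts of a gene scaled to a common library total, after TMM, which corrects for composition, and are compared between mice and not between genes, since they are not divided by gene length. Markers of the labelled tissue were present in every mouse: the summed level of 5 mature OSN markers, Omp, Adcy3, Ano2, Cnga2 and Gnal, was 4240 to 14900 CPM, and that of 8 sustentacular cell markers 8510 to 15800 CPM.

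Of the 14930 genes tested with edgeR's quasi-likelihood test and the postnatal day as a block, 12 were higher at 100% than at 1% heptanal at an adjusted p below 0.05 (0.0804% of genes tested), and 0 were lower (0%). With no adjustment of the p, 1007 genes lay below 0.05 and higher (6.74%), and 549 lower (3.68%). The genes that rose were the immediate early genes Fos, Fosb, Egr1, Nr4a1 and Btg2, the phosphatase gene Dusp14, the adhesion genes Pcdh10 and Kirrel2, Tsc22d1, Cartpt and Gpm6b, and a single OR, Olfr1423. All 12 were higher in each of the 3 pairs, against 16.9% of all genes tested. For 11 of them every 100% mouse lay above every 1% mouse, as it did for 4.74% of genes tested. The exception was Olfr1423, in which the 1% mouse of day 22 lay above the 100% mouse of day 18. Because the 12 were picked by their p over these same pairs, this agreement follows in part from the choice. It describes the genes and is no further evidence of a rise. Leaving out single mice gave between 3 genes (without the 100% mouse of day 21) and 33 genes (without the 1% mouse of day 18) called higher. The plot of single mice shows these genes with the water controls beside them.

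**Figure D1:**
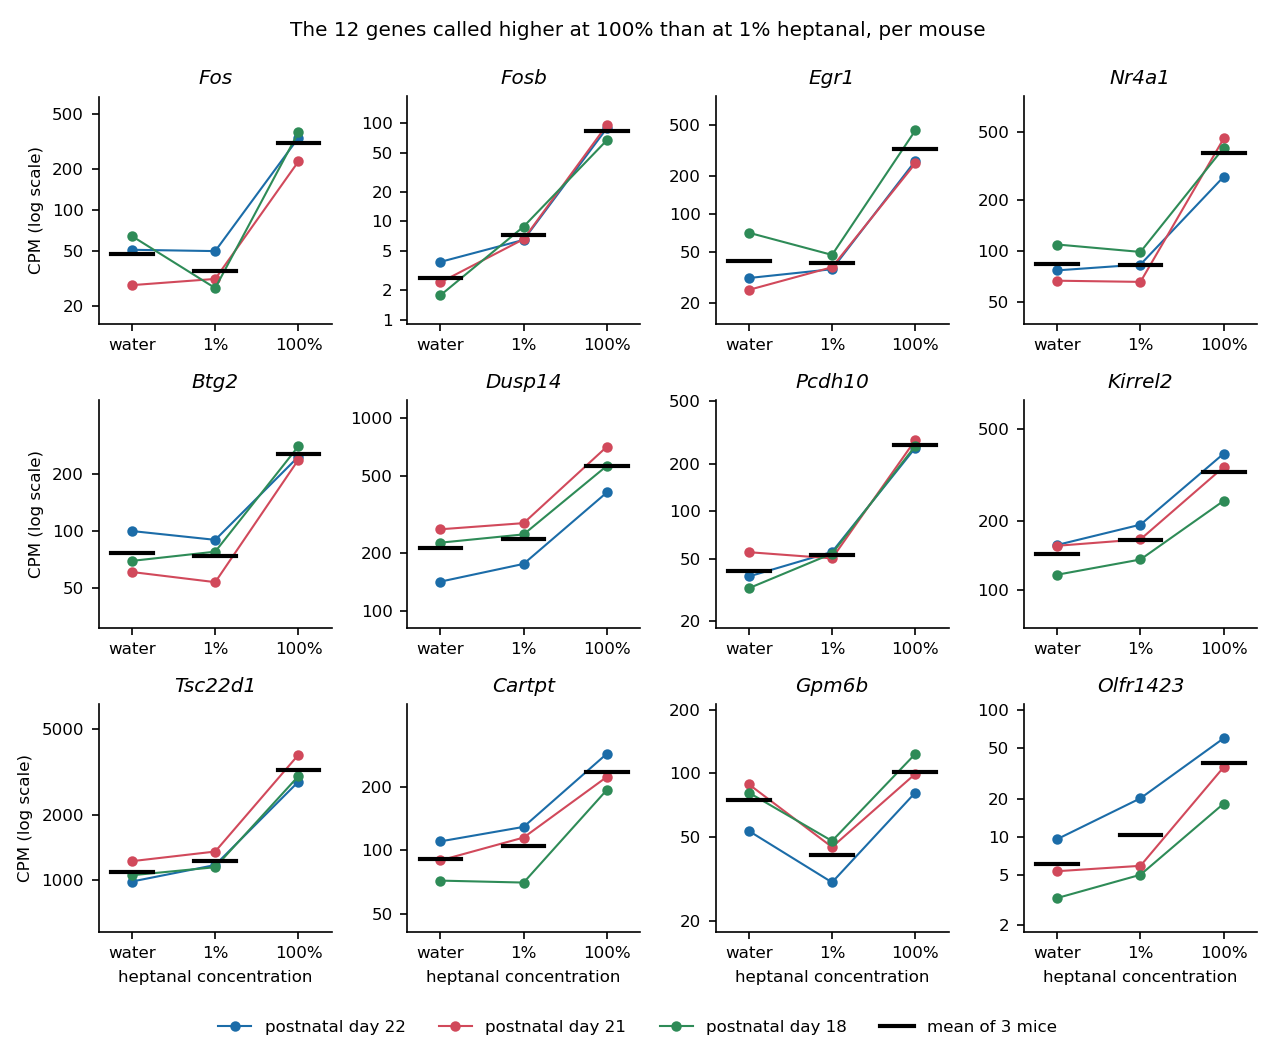
Level of the 12 genes called higher at 100% than at 1% heptanal, in CPM on a log axis, in the 9 mice. Points are mice, lines join mice of the same postnatal day and black bars are means of 3 mice. In 11 panels the 3 mice at 100% lie above the 3 at 1%, and in the panel of Gpm6b the 1% mice also lie below the controls.

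Fosb, which encodes a partner of Jun proteins in the AP-1 transcription factor, was at 6.49, 6.60 and 8.86 CPM in the 1% mice and at 88.9, 95.6 and 67.1 CPM in the 100% mice. The log2 fold change was 3.48 ± 0.29 (SE), or 11.1-fold, with an adjusted p of 0.00431 in edgeR. The groups were far apart, and the spread within each was small beside the difference between them.

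Fos, the other AP-1 subunit among the genes that rose, was at 50.1, 31.4 and 27.0 CPM at 1% and 335, 226 and 368 CPM at 100% heptanal (log2 fold change 3.09 ± 0.26, edgeR adjusted p of 0.00431). Egr1, a zinc finger transcription factor induced by MAP kinase signalling, was at 36.9, 38.2 and 47.7 CPM at 1% and at 261, 249 and 452 CPM at 100% (2.91 ± 0.21, adjusted p of 0.00413). In both genes the lowest 100% mouse was several times above the highest 1% mouse. Nr4a1, an orphan nuclear receptor, was at 83.5, 66 and 98.9 CPM at 1% and 273, 457 and 403 CPM at 100% (2.19 ± 0.22, adjusted p of 0.00841). Btg2, which encodes an antiproliferative protein that promotes mRNA deadenylation, was at 89.8, 53.9 and 77.8 CPM at 1% and 246, 237 and 279 CPM at 100% (1.82 ± 0.18, adjusted p of 0.0077). Both again had groups that did not overlap.

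In the same fit none of these genes passed the test at 1% heptanal against water, where the log2 fold changes were -0.37 for Fos, 1.51 for Fosb, 0.06 for Egr1, -0.02 for Nr4a1 and -0.06 for Btg2, each with an adjusted p of 0.9997 in edgeR. At 100% against water they were 2.72, 4.98, 2.98, 2.18 and 1.76 in the same order. No gene of the table passed at 1% against water in either direction (0%), where the lowest adjusted p was 0.314 and 487 genes had an unadjusted p below 0.05. At 100% against water 48 genes were higher (0.322%), 8 of them ORs, and 0 lower. Fosb in the controls was at 3.87, 2.4 and 1.77 CPM, so its 1% mice lay above its controls in every pair although the difference did not pass. These comparisons share mice with each other and are given side by side only.

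The immediate early list held 28 genes, of which 26 were tested. Beside the 5 that rose, 8 had an unadjusted p below 0.05 and a higher level at 100%, and none a lower one. The 5 and the 8 together were 50% of the tested list, against 6.74% of all genes. This list and those below were chosen in part with earlier results of these data known, so their shares and medians only describe the members. The median log2 fold change of the 26 was 0.84 against 0.02 over all genes tested. Junb was at 47.2, 37.3 and 49.3 CPM at 1% and 78.8, 83.2 and 114 CPM at 100% (1.04 ± 0.18, adjusted p of 0.121 in edgeR), again without overlap. Nr4a2 and Ier2, named after their values were seen, had log2 differences of 1.55 ± 0.30 and 0.91 ± 0.22. Of 2 genes that mark activity in forebrain neurons, Npas4 was near the limit of detection, with at most 2.96 CPM in any of the 6 mice. Arc, counted in the list of activity effectors below, was low, at 1.47, 3.47 and 3.35 CPM at 1%. At 100% it was at 2.86, 7.57 and 5.47 CPM, higher in each pair (0.91 ± 0.53, adjusted p of 0.574 in edgeR). Its log2 difference of 100% from water was -0.14.

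The start regions of these genes are shown because cyclic AMP acts on transcription through the CRE, a sequence bound by CREB. The sequences are from RefSeq on GRCm38.p6, run 5′ to 3′ on the gene's strand from 250 bases before the start to 50 bases after it, and are at chr12:85473640-85473939 (+ strand) for Fos, chr7:19309996-19310295 (- strand) for Fosb, chr15:101266596-101266895 (+ strand) for Nr4a1 and chr1:134079106-134079405 (- strand) for Btg2. Capitals mark each match to the CRE core TGACG on either strand (CGTCA when read from the other strand), to the whole CRE TGACGTCA, which contains the core on both strands, or to the TATA box TATAAA.
Fos: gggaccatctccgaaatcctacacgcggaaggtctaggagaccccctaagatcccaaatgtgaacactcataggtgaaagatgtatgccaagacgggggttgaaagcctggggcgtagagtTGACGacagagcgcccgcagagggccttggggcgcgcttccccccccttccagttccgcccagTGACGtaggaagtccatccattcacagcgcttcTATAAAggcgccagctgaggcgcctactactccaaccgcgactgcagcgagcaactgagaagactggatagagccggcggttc
Fosb: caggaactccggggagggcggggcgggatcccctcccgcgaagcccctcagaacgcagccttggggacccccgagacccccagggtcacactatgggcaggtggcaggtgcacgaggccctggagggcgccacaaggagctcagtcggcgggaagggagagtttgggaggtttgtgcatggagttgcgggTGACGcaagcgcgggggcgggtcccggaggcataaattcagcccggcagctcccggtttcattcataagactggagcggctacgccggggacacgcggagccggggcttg
Nr4a1: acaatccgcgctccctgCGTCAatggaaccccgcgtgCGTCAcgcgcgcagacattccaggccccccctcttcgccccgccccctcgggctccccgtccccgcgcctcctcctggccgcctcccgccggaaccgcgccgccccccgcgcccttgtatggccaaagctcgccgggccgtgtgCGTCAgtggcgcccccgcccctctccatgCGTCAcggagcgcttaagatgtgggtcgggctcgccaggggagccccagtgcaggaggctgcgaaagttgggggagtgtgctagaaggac
Btg2: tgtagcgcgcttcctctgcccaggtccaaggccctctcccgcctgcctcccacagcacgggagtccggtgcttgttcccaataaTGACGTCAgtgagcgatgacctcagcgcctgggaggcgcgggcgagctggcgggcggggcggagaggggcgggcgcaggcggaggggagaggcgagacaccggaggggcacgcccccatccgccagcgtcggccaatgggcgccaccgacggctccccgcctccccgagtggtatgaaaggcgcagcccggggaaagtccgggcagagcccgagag
The core stood at -129 and -66 in Fos, at -60 in Fosb and at -233, -213, -69 and -40 in Nr4a1, counted from the start to the first base of the match. Btg2 held the whole CRE at -166, and only Fos of these 4 held a TATA box by these letters, at -33. Of the 32851 promoter windows of this length, 20.8% held the core, 1.79% the whole CRE and 13.6% the TATA box. Among the 12 genes that rose, 11 had a window in the table, 1 of them (Tsc22d1) with 5 windows, and 8 held the core and 3 the whole CRE (Btg2, Cartpt and Gpm6b) in at least 1 window. The AP-1 site TGANTCA, in 7.81% of all windows, and the CArG box bound by SRF, in 1.63%, were in none of the 11. Egr1, the gene without a window, and bases more than 250 before a start were not searched, so nothing is said of sites there. The motif counts are matches of letters and not measured binding.

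Dusp14, a dual-specificity phosphatase gene from the list of MAP kinase feedback genes (chr11:84048041-84069261, mm10), was at 176, 286 and 250 CPM at 1% and at 413, 711 and 566 CPM at 100% heptanal. It rose by 1.24 ± 0.12 on the log2 scale (edgeR adjusted p of 0.0077), and the ages kept the same order at both concentrations. Of the 15 tested members of the list no other passed, and Dusp1 alone among the rest had an unadjusted p below 0.05, at 131, 80.8 and 48.3 CPM against 160, 106 and 186 CPM. With Dusp14 this was 13.3% of the list, against 6.74% of all genes.

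Pcdh10 encodes a protocadherin and Kirrel2 a homophilic adhesion protein, both linked to OSN activity and to the sorting of OSN axons into glomeruli. Pcdh10 (chr3:45378398-45435623) was at 55.1, 50.2 and 53.8 CPM at 1% and at 252, 282 and 259 CPM at 100%, a log2 fold change of 2.31 ± 0.18 (edgeR adjusted p of 0.00413). Its mice agreed closely within each group, with an SD of 2.56 CPM around a mean of 53.1 at 1% and of 15.8 around 264 at 100% (n = 3). Kirrel2 (chr7:30447534-30457690) was at 192, 166 and 136 CPM at 1% and at 391, 342 and 244 CPM at 100% (0.97 ± 0.12, adjusted p of 0.0394).

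Of the 15 tested genes of the activity-linked OSN list, these 2 rose, and 2 more had an unadjusted p below 0.05 and a higher level. Together they were 26.7% of the list, against 6.74% of all genes, and the median log2 fold change of the list was 0.45. This list too was chosen in part with earlier results of these data known. The calcium-binding protein gene S100a5, 1 of the 2 genes added by the unadjusted p, was named after its values were seen. It was at 11.9, 18.8 and 99.3 CPM at 1% and 27.4, 222 and 108 CPM at 100%, so that the groups overlapped. Of the 20 tested neuronal activity effectors and CREB targets none passed, 3 were higher (15%, against 6.74% of all genes) and 1 lower (5%, near the 3.68% of all genes) when the p was not adjusted, and the median was 0.19. Gem, a small GTPase gene, was at 10.2, 3.3 and 15.5 CPM against 28.7, 33.7 and 26.4 CPM. Gadd45g, the lower one, was at 50.3, 32.1 and 37.8 CPM against 27.2, 20.8 and 24.8 CPM, without overlap (-0.71 ± 0.17, adjusted p of 0.244 in edgeR).

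Tsc22d1, a leucine zipper transcriptional regulator (chr14:76414961-76507765), was at 1169, 1350 and 1142 CPM at 1% and at 2850, 3799 and 3023 CPM at 100% heptanal (1.39 ± 0.13, edgeR adjusted p of 0.00545). Of its counts 34.5% were assigned among several genes by the authors' rescue scheme. Cartpt, which encodes the precursor of a neuropeptide, was at 129, 115 and 70.3 CPM at 1% and at 289, 224 and 194 CPM at 100% (1.19 ± 0.14, adjusted p of 0.0215).

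Gpm6b, a neuronal membrane glycoprotein gene (chrX:166238911-166388988), was at 53.3, 88.6 and 80.9 CPM in the water controls, at 30.4, 44.6 and 47.7 CPM at 1% and at 80.9, 99.3 and 123 CPM at 100%. Its difference of 1.32 ± 0.15 between the concentrations (edgeR adjusted p of 0.0211) thus stood beside -0.86 at 1% and 0.46 at 100% against water, neither of which passed. With each of the 9 mice left out in turn, Egr1 and Pcdh10 were called in 9 of 9 fits and Fos and Fosb in 8, failing without the 100% mouse of day 21. Tsc22d1 and Nr4a1 were called in 7, Btg2 and Dusp14 in 6, Cartpt and Gpm6b in 1, and Kirrel2 and Olfr1423 in 0. All 12 kept a value above 0 in all 21 alternative fits.

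The machinery of odor transduction was higher at 100% heptanal in most members, though no member passed the adjusted test. Of 24 tested genes, 16 had an unadjusted p below 0.05 and were higher (66.7%, against 6.74% of all genes), 0 were lower, and the median log2 fold change was 0.59. Omp, the olfactory marker protein of mature OSNs, was at 5723, 6598 and 4804 CPM at 1% and 9234, 11982 and 8711 CPM at 100% (0.80 ± 0.15, adjusted p of 0.168 in edgeR). Gnal, which encodes the alpha subunit of Golf, was at 691, 1096 and 778 CPM against 1584, 1786 and 1094 CPM. Omp had no overlap between groups, while for Gnal the 100% mouse of day 18 lay just below the 1% mouse of day 21.

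Cnga2, a subunit of the cyclic nucleotide-gated channel, was at 20.6, 335 and 237 CPM at 1% and 410, 506 and 337 CPM at 100%, where the 1% mouse of day 22 lay far below the others. Ano2, the calcium-activated chloride channel of OSN cilia, was at 121, 103 and 73.9 CPM against 170, 158 and 116 CPM, and Adcy3, the cyclase, at 303, 350 and 261 CPM against 375, 460 and 299 CPM. The transcription factors Ebf1, Lhx2 and Ldb1 of the same list had log2 differences of -0.16, 0.08 and -0.17. Together the 5 mature OSN markers took 0.649%, 0.898% and 0.644% of all counts at 1% and 1.18%, 1.45% and 1.06% at 100%. Within pairs this was 1.81, 1.62 and 1.64 times as much, higher in 3 of 3 pairs (two-sided exact sign-flip permutation test, p = 0.25, the smallest p that 3 pairs allow). The 7 tested markers of immature OSNs had a median log2 fold change of -0.16, and their summed level was 1140 to 1770 CPM at 1% and 1420 to 1540 CPM at 100%.

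**Figure D2:**
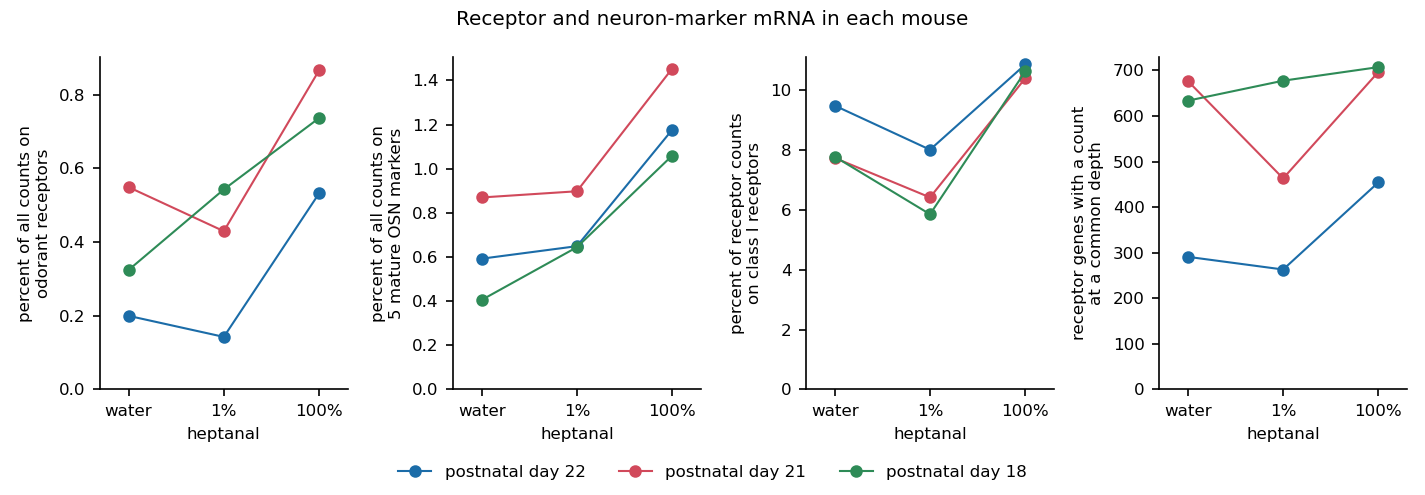
Share of all counts on ORs, share on 5 mature OSN markers, share of OR counts on class I ORs (all in percent), and number of OR genes with a count at a common depth, in the 9 mice. Points are mice and lines join mice of the same postnatal day. The class I share of the 3 mice at 100% lies between 10.4% and 10.9%, above all 3 mice at 1%.

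ORs as a group were also higher at 100% heptanal. They took 0.143%, 0.429% and 0.543% of all counts in the 1% mice and 0.532%, 0.866% and 0.736% in the 100% mice, which was 3.73, 2.02 and 1.36 times as much within the pairs (higher in 3 of 3 pairs, exact sign-flip permutation p = 0.25, the smallest possible). The 100% mouse of day 22 lay just below the 1% mouse of day 18, so the groups overlapped. Set against the counts on the 5 OSN markers, the ratios were 2.06, 1.25 and 0.825, no longer higher in every pair (exact p = 0.50). Without the pair of day 22 the mean ratio of OR shares was 1.65 in place of 2.17. The shares of OSN markers and of ORs thus moved in the same direction, and the part of the former in the levels of single ORs was not tested.

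More OR genes were seen at 100% as well. Thinned to a common depth of 5438466 counts, 263, 463 and 677 ORs were expected to have a count in the 1% mice and 454, 697 and 707 in the 100% mice (exact p = 0.25, the smallest possible). The 10 most counted ORs of a mouse took 31.3% ± 5.52 (SD, n = 3) of its OR counts at 1% and 25.2% ± 2.27 (SD, n = 3) at 100%.

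Of the 1248 ORs, 448 passed the filter on low counts, and 128 of them did so without reaching the minimum in 3 control or 1% mice. Because such ORs had to be high at 100%, the ORs with at least 10 counts in each of the 3 controls are given as well, a choice that used no heptanal mouse. These were 129 ORs, with a median log2 fold change of 1.10 between 100% and 1% and a middle range of 0.11 to 1.76. Of them 100 were above 0, 60 had an unadjusted p below 0.05 and were higher (46.5%, against 6.74% of all genes tested) and 2 were lower. Every 100% mouse lay above every 1% mouse for 43 of the 129 (33.3%, against 4.74%). Without the 1% mouse of day 22 the median was 0.81, with 89 above 0, 48 higher (37.2%) and 8 lower by the unadjusted p. The median of the 5 OSN markers in the fit of all mice was 0.79. The plot of fold change against level draws all 448 tested ORs, so their place above the bulk of genes at the same level depends in part on the filter.

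**Figure D3:**
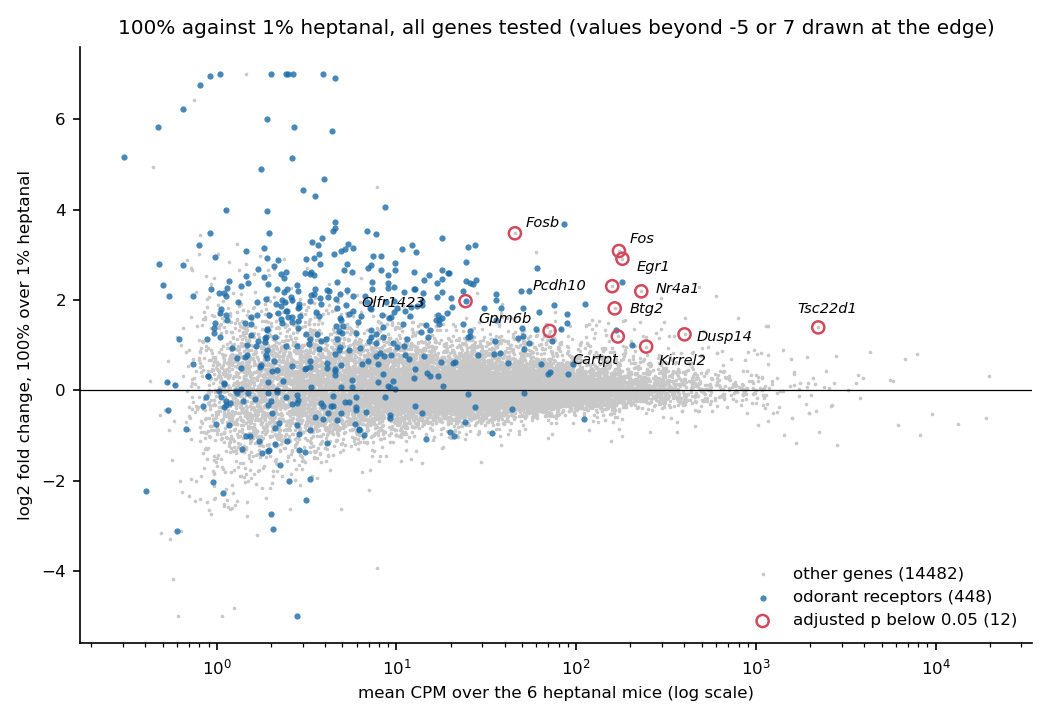
Log2 fold change of 100% over 1% heptanal against the mean level over the 6 heptanal mice (CPM, log axis) for the 14930 genes tested. Blue points are the 448 ORs, grey points the 14482 other genes and red rings the 12 genes called, and fitted values of ORs with 0 counts in a group, drawn at the upper and lower edge, depend on the prior count. Most of the ORs drawn lie above 0, 128 of the 448 having passed the filter without its minimum in 3 control or 1% mice, while the median of the other genes is 0.01.

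Olfr1423, the OR that rose (chr19:12031787-12041317, class II), was at 20.2, 5.91 and 5.02 CPM at 1% and at 60.2, 35.6 and 18.3 CPM at 100% heptanal. The log2 fold change was 1.98 ± 0.26 with an adjusted p of 0.0462 in edgeR, close to the threshold. In the controls it was at 9.60, 5.36 and 3.29 CPM, so each 1% mouse lay above its control and each 100% mouse above its 1% partner.

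The ORs that followed in the test, Olfr237-ps1 and Olfr622, did not pass. Olfr622, a class I OR (chr7:103638451-103642702), was at 9.14, 4.0 and 8.96 CPM at 1% and 58.0, 38.7 and 28.2 CPM at 100% (2.43 ± 0.36, adjusted p of 0.0862 in edgeR). Olfr237-ps1 was at 1.33, 2.26 and 2.95 CPM against 6.29, 29.0 and 16.7 CPM, with 29.2% of its counts assigned among genes. For both, picked by their low p, all 100% mice lay above all 1% mice, as was so for 20.3% of the ORs tested.

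Olfr669, the class I OR with the most counts at 100% heptanal (chr7:104934240-104940477), had 6, 113 and 255 counts in the 1% mice and 912, 1309 and 1554 in the 100% mice. Its levels were 0.885, 19.6 and 25.1 CPM against 104, 184 and 177 CPM, a log2 difference of 3.67 ± 0.58 (adjusted p of 0.114). In the controls it was at 10.4, 22.7 and 16.6 CPM, and of the 1% mice only that of day 18 lay above its control. Without the 1% mouse of day 22 the difference was 3.02 and passed the test (adjusted p of 0.0107 in edgeR), while Olfr1423, at 2.23, then did not (adjusted p of 0.0606).

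Olfr544 and Olfr1362 were included with their earlier results known. Olfr544 (class I, chr7:102482031-102488313) was at 3.10, 3.3 and 6.89 CPM at 1% and at 28.2, 27.2 and 17.0 CPM at 100% (2.44 ± 0.42, edgeR adjusted p of 0.135). Olfr1362 (class II, chr13:21610978-21614022) was at 10.9, 6.25 and 7.58 CPM at 1% and at 51.6, 38.1 and 25.4 CPM at 100% (2.20 ± 0.41, adjusted p of 0.162). Neither had an overlap between the groups, as was so for 33.3% of the ORs chosen by their controls and 4.74% of all genes tested. Against water their log2 differences were 0.33 and 0.38 at 1% and 2.77 and 2.58 at 100%. As these values may have guided the choice of both ORs, nothing further is read from them.

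**Figure D4:**
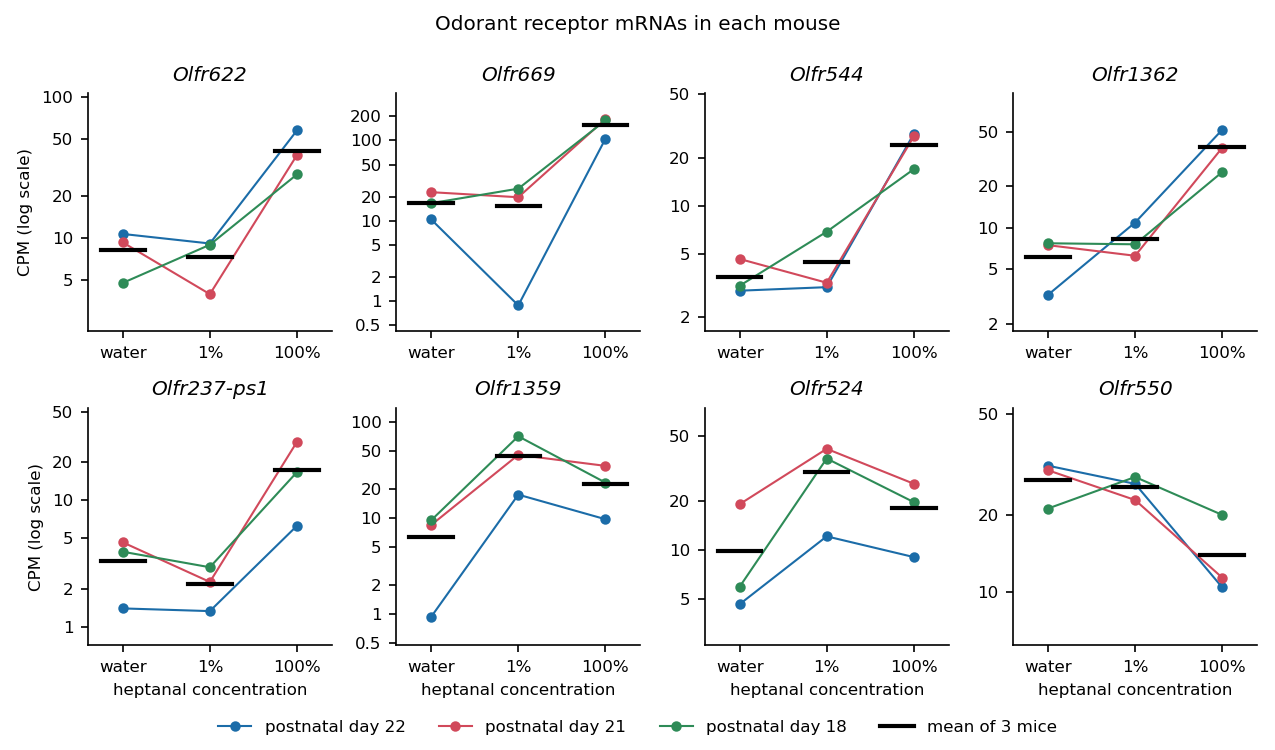
Level of 8 ORs in CPM on a log axis in the 9 mice, with lines joining mice of the same postnatal day and black bars for means of 3 mice. Olfr622, Olfr669, Olfr544, Olfr1362 and Olfr237-ps1 are higher in every 100% mouse than in any 1% mouse, and Olfr1359, Olfr524 and Olfr550 are lower at 100% in each pair. The ORs drawn were chosen by their p, with earlier results known or after their values were seen.

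A number of ORs were hardly counted at 1% heptanal. Olfr601 (class I) had 3 counts over the 1% mice and 203 over the 100% mice, a ratio of 62.3 with a 95% exact counting interval of 21.0 to 304 (edgeR adjusted p of 0.116). It had 42, 49 and 24 counts in the controls, so its level at 1% lay below water, while the log2 difference of 100% from water was 0.51 ± 0.66. Of the ORs tested, 11 had 0 counts in all 1% mice and 1 had 0 in all 100% mice, but an OR at 0 in a group passed the filter on low counts only through the other groups, so nothing is read from these numbers. Of the 129 ORs chosen by their controls, 0 were at 0 in all mice of either group. Olfr559, also class I and named after its values were seen, had 0 counts in each 1% mouse and 54, 40 and 36 in the 100% mice, against 0, 13 and 3 in the controls, at least 12.6-fold higher than at 1% with a floor of 3 counts per mouse. Olfr598, a further class I OR named likewise, had 0 counts in each 1% mouse and 3, 89 and 94 at 100%, against 0, 12 and 4 in the controls, at least 18.7-fold higher than at 1%, and 73.3% of its counts came from reads shared with other genes. Olfr559 passed the filter only through the 100% mice and Olfr598 mainly through them, so these bounds describe the counts and are not evidence of a rise. At the other end, Olfr461, also named after its values were seen, had 0, 37 and 36 counts in the controls and 0, 17 and 141 at 1%. It had 0 in each 100% mouse, at least 15.2-fold lower than at 1%, carried mainly by the mouse of day 18. Olfr461 passed the filter only through control and 1% mice, so this bound describes the counts and is not evidence of a fall. Of 14 trace amine-associated receptor genes, the other receptor family of OSNs, 2 were tested. Taar7e had 56 counts over the 1% mice and 2 over the 100% mice. The ratio was 0.0329 with a 95% exact counting interval of 0.00389 to 0.124. It passed the filter only through the 1% mice, so this ratio describes the counts and is not evidence of a fall. Taar7a, the other gene tested, had 15, 11 and 1 counts at 1% and 10, 6 and 12 at 100%, with no common direction over the pairs. For both genes most counts came from reads shared with other genes.

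Other ORs had lower levels at the higher concentration, none past the adjusted test. Olfr1359 (chr13:21698111-21706833) was at 0.929, 8.46 and 9.48 CPM in the controls, at 17.5, 45.7 and 71.4 CPM at 1% and at 9.72, 35.1 and 23.5 CPM at 100%. Olfr524 (chr7:140198499-140205964) was at 4.65, 19.0 and 5.94 CPM in the controls, at 12.1, 41.5 and 36.2 CPM at 1% and at 9.03, 25.4 and 19.6 CPM at 100%. In both, each 1% mouse was the highest of its trio and each 100% mouse lay between it and the control. Both were included with their earlier results known, and Olfr1359 had the lowest adjusted p of all genes at 1% against water (0.314 in edgeR). As their 1% values may have guided that choice, nothing further is read from this order.

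The difference between the concentrations was -0.94 ± 0.33 for Olfr1359 and -0.69 ± 0.30 for Olfr524 on the log2 scale (edgeR adjusted p of 0.41 and 0.471). Of the counts of Olfr1359, 37.4% were assigned among genes. Olfr550 (class I), named after its values were seen, was at 31.3, 30.0 and 21.2 CPM in the controls, 26.5, 22.9 and 28.2 CPM at 1% and 10.4, 11.4 and 20.04 CPM at 100%, with every 100% mouse below every mouse at 1% (-0.91 ± 0.29, adjusted p of 0.376).

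Class I ORs, the family shared with fish and encoded in a cluster on chromosome 7, were set apart by position, from Olfr543 to Olfr692. They made up 145 of the 1248 ORs, and 1091 others with a place in the annotation were counted as class II. Class I ORs took 8.01%, 6.42% and 5.86% of the OR counts in the 1% mice and 10.9%, 10.4% and 10.6% in the 100% mice, and 9.49%, 7.74% and 7.78% in the controls. All 3 mice at 100% lay above the 6 others, while each 1% mouse lay below its own control. Within pairs the share at 100% was 1.36, 1.62 and 1.82 times that at 1% (exact sign-flip permutation p = 0.25, the smallest possible). Without Olfr669, an alternative chosen after its counts were seen, the mean ratio was 1.37 in place of 1.59. Of the ORs with at least 10 counts in each control, 17 were class I, with a median log2 fold change of 1.63 and 9 higher at an unadjusted p below 0.05 (52.9%), and 112 class II, with a median of 0.98 and 51 higher (45.5%). The difference between the classes in these values was not tested. The class I share is taken within OR counts, and whether it varies with their total was not tested.

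Genes of chemical and protein stress were examined because heptanal is an aldehyde. None passed the adjusted test. In the list of electrophile defence genes driven by NRF2, 3 of 19 tested had an unadjusted p below 0.05 and were higher (15.8%, against 6.74% of all genes), with a median of 0.20. Nqo1, a quinone reductase gene (chr8:107388225-107403206), was at 48.7, 82.5 and 111 CPM at 1% and 194, 255 and 208 CPM at 100% heptanal, without overlap (1.496 ± 0.20, edgeR adjusted p of 0.0516). Srxn1, sulfiredoxin, was at 17.8, 45.5 and 70.3 CPM against 79.4, 109 and 87.7 CPM, also without overlap (adjusted p of 0.257).

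Of 17 tested heat shock genes, 7 were higher at an unadjusted p below 0.05 (41.2%, against 6.74%) and 0 were lower, with a median of 0.41. The inducible chaperone gene Hspa1a was at 18.3, 6.08 and 12.7 CPM at 1% and at 18.1, 172 and 133 CPM at 100%, so the pair of day 22 showed no difference while the other pairs differed widely. Of its counts 61.9% were assigned among genes. Its cochaperone Dnajb1 was at 76.7, 66.5 and 80.0 CPM against 96.6, 224 and 205 CPM, again with the smallest difference at day 22. The 21 genes of the unfolded protein and integrated stress response had a median of -0.15, with 0 at an unadjusted p below 0.05.

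Of the 15 tested inflammatory genes, Il1b, Il33 and Zfp36 were higher at an unadjusted p below 0.05 (20%, against 6.74%), 0 were lower, and the median was 0.10. Il33, which encodes an alarmin cytokine, was at 21.5, 89.1 and 103 CPM at 1% and 91.0, 182 and 312 CPM at 100%, and Il1b did not exceed 17.7 CPM in any mouse. Of 21 tested genes of aldehyde metabolism, 5 were higher (23.8%, against 6.74%) and 0 lower by the unadjusted p, with a median of 0.17. Cbr2, a carbonyl reductase gene that also counts among the sustentacular markers, was at 2484, 1861 and 1912 CPM against 3146, 3086 and 4303 CPM. The retinal dehydrogenase gene Aldh1a1 was at 36.9, 153 and 150 CPM against 97.2, 269 and 155 CPM. The plot of gene lists sets these groups side by side.

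**Figure D5:**
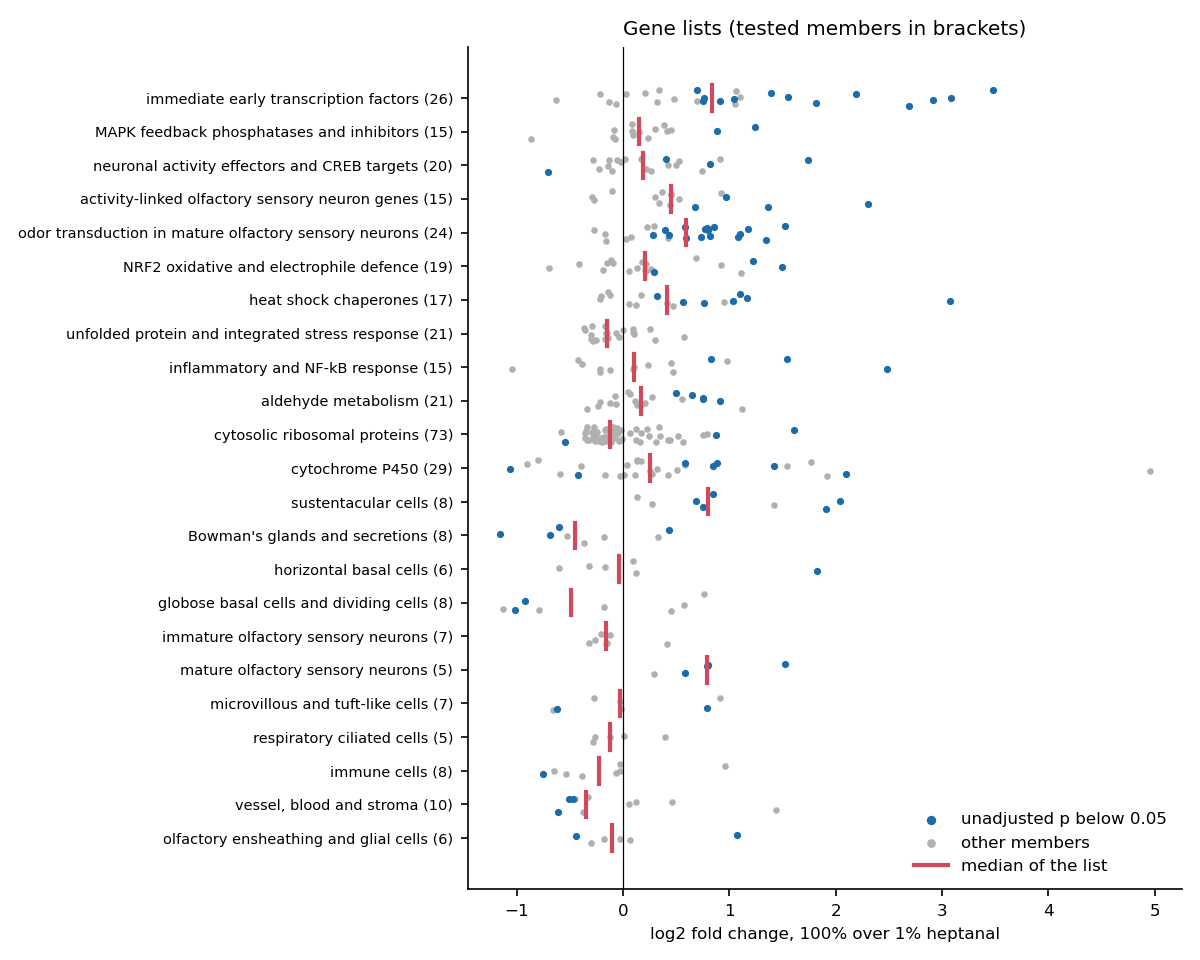
Log2 fold change of 100% over 1% heptanal for the tested members of each gene list, with the number of members in brackets. Blue points have an unadjusted p below 0.05, grey points do not, and red bars are list medians. The immediate early genes have a median of 0.84 and hold 5 of the genes called, and the mature OSN and sustentacular markers lie above 0 in all members.

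Among markers of other cells, those of sustentacular cells were higher at 100%, though none passed the adjusted test. All 8 were above 0, 5 with an unadjusted p below 0.05 (62.5%, against 6.74% of all genes), the median was 0.80, and the median at 1% against water was -0.02. Their summed level was 9000 to 9310 CPM at 1% and 10900 to 15800 CPM at 100%, which was 1.18, 1.47 and 1.76 times as much within pairs. Cyp2g1, a cytochrome P450 of these cells, was at 701, 666 and 590 CPM at 1% and 1006, 1098 and 1386 CPM at 100%. Over the 29 tested cytochrome P450 genes, 5 were higher (17.2%, against 6.74% of all genes) and 2 lower (6.9%, against 3.68%) by the same unadjusted threshold, with a median of 0.25.

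Markers of Bowman's glands and their secretions had a median of -0.45, with 1 of 8 higher (12.5%, against 6.74% of all genes) and 3 lower (37.5%, against 3.68%) when the p was not adjusted. Their summed level was 42300 to 83400 CPM at 1% and 43400 to 58000 CPM at 100%, which was 0.547, 1.27 and 1.03 times as much within pairs. The odorant-binding protein gene Obp1a was at 5788, 1032 and 407 CPM against 1974, 668 and 172 CPM, and the gland transcription factor gene Sox9 at 67.4, 53.7 and 60.6 CPM against 46.4, 31.4 and 36.1 CPM. Bpifa1 and Bpifb9b of this list lay above 0, at 0.43 and 0.33 on the log2 scale, and the other 6 below. Markers of globose basal and dividing cells did not go one way: their median was -0.49, while the dividing-cell genes Mki67, Top2a and Ccnb1 were at 0.76, 0.45 and 0.57 on the log2 scale. Of the 8, 0 were higher and 2 lower by the unadjusted p (25%, against 3.68% of all genes). Neurod1, a factor of late progenitors, was at 28.5, 41.2 and 85.7 CPM at 1% and 24.1, 26.1 and 20.04 CPM at 100%.

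The medians of the remaining marker lists were -0.35 for vessel, blood and stroma, -0.22 for immune cells, -0.13 for ciliated cells, -0.11 for ensheathing and glial cells, -0.04 for horizontal basal cells and -0.03 for microvillous cells. At an unadjusted p below 0.05, 3 of 10, 1 of 8, 0 of 5, 1 of 6, 0 of 6 and 1 of 7 of their tested genes were lower, in the same order. Over all genes tested 3.68% were lower. In the ensheathing and glial, horizontal basal and microvillous lists 1 gene each was higher by the same threshold. The part of these cell types in the values of other genes was not tested. The 73 tested ribosomal protein genes had a median of -0.12, and Rps6, the gene of S6 itself, was at 1108, 659 and 972 CPM at 1% and 908, 668 and 988 CPM at 100% (-0.08 ± 0.14).

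No gene was called lower at 100% heptanal, where the lowest adjusted p was 0.151. That gene was Bpifb6, a secreted BPI-fold protein gene, at 520, 533 and 296 CPM at 1% and 363, 298 and 179 CPM at 100%, and it was followed by Ltf, lactoferrin, at 2357, 1106 and 885 CPM against 1420, 754 and 514 CPM. Cdca3, a cell division gene, was at 55.4, 47.6 and 61.9 CPM against 27.9, 24.96 and 38.7 CPM, without overlap. These 3 were named after their values were seen. With DESeq2 and the same block 27 genes were called lower and 184 higher, 68 of the latter ORs, and without the block edgeR called 2 genes, Fosb and Pcdh10, in place of 12.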

How the data were processed

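For each of 9 mice, 1 library was sequenced from the RNA that pS6-IP recovered from its OE. The authors aligned single-end reads to mm10 with Bowtie, replaced the OR gene models with extended ones and counted reads per gene with BEDTools (versions not given in the sources used here). The deposited tables have no header. Their first value column was taken to hold the whole-number counts of reads that mapped to 1 place, and their last the estimated counts (expected counts) after a rescue scheme that shares reads mapping to several places among genes. The rescued estimated counts deposited by the authors were used here, rounded to whole numbers, and the deposited unique counts served as an alternative. The rescue supplied 23.9 to 30.5% of the counts of a mouse and 9.81 to 13.9% of its OR counts, so values of near-identical genes depend on it. The kit (Nextera) does not mark strand, so a gene and an antisense partner cannot be told apart.

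Groups came from the labels. Genes were kept by filterByExpr (minimum count 10, minimum total 15, here 1.37 CPM in at least 3 mice), scaled by TMM and tested with the quasi-likelihood test of edgeR 4.0.16 in R 4.3.3, with the postnatal day as a block, all 9 mice in the fit and Benjamini-Hochberg adjustment over 14930 genes at a threshold of 0.05. The SE was taken as the size of the log2 fold change over the root of its F statistic. The block follows the labelled day and the methods' littermates, and deviations of same-day mice from their group means correlated at 0.155 to 0.73 over 9 pairs of mice, against -0.746 to 0.449 over 18 other pairs. Single values per mouse were compared over the 3 pairs with an exact two-sided sign-flip permutation test, which cannot go below p = 0.25. Scripts were tested on simulated data. Alternatives were no block, the 6 heptanal mice alone, DESeq2 1.42.0, the likelihood ratio test, other scalings, no filter, unique counts, and each mouse and each pair left out.

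Named genes were the ORs and up to 15 other genes called with the lowest p and higher in all pairs, up to 3 members of each list with the lowest p, and a set of OSN, activity and previously noted genes. The members and lists were chosen with earlier results of these data known. Mice of a group differed in age and, by the methods, came from separate replications with their own littermates. The titles of the day 22 mice carry another prefix than those of days 21 and 18, which falls together with the day, and its meaning is not given in the sources used here. Totals were 5438494 to 9707592 counts (median 7305895), at which a count of 0 allows up to 5.52e-05% of the counts of the smallest library (3 counts, counting error only). Coordinates of genes are from GENCODE on mm10 (GRCm38), and promoter sequences are from RefSeq on GRCm38.p6. Figures were drawn with matplotlib 3.10.9, and summaries used Python 3.11.15, numpy 2.4.6, pandas 2.3.3 and scipy 1.17.1.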

Additional observations from a re-analysis of the deposited data

How the results depend on the processing

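The number of genes called depended on the test, while the direction of the 12 genes did not: all were above 0 in all 21 alternative fits. Against 12 genes higher, 0 lower and 1 OR higher, edgeR without the replicate block, so with the pairing ignored, called 2 higher and 0 ORs, and a fit of the 6 heptanal mice alone 2 and 0 ORs. DESeq2 called 184 higher (68 ORs) and 27 lower, the likelihood ratio test 190 (74 ORs) and 36, and the fit with no filter on low counts 25 (7 ORs) and 0. Scaling to the 5 mature OSN markers moved the median of all genes to -0.77, with 78 genes (58 ORs) higher and 6613 lower, and the median of the 448 tested ORs, 1.40, to 0.65. Relative to the median of those markers it was 0.61, an alternative chosen after seeing the data. Over the 129 ORs chosen by their controls it was 1.10, and 0.81 without the 1% mouse of day 22, a choice also made after seeing the data. RLE scaling, plain library sizes and unique counts gave 13, 11 and 12 genes higher. The cause of these shifts was not tested.

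With a mouse or a pair left out, 0 to 33 genes were higher, 0 to 2 lower and 0 to 9 ORs higher. Without the pair of day 22, 21 or 18 the genes higher were 4, 0 and 7. Without the mouse of day 21 they were 4 at 1% and 3 at 100%, and without that of day 18, 33 at 1% and 6 at 100%. The OR median ranged from 1.08 to 2.34, at 2.17 without the pair of day 18 and 2.34 without its 1% mouse. The ratio of OR shares ranged from 1.65 to 2.74, that of OR genes at a common depth from 1.25 to 1.61 and that of class I shares from 1.48 to 1.715. These ratios stayed above 1, and the class I ratio was 1.37 without Olfr669, but 2 pairs cannot reach p below 0.50.

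Of the other named genes, 33 values changed sign, all of genes that were not called. Scaled to the OSN markers these were Spry1 (-0.43), Cidea (-0.12), Nsg1 (-0.018), Ugdh (-0.50), Ppp1r15a (-0.49), Cbr2 (-0.0465), Aldh1a1 (-0.02155), Stmn2 (-0.37), Ano2 (-0.20), Dnah5 (-0.37), Npas4 (-0.11) and Adcy3 (-0.49). Taar7a was at 0.084 in the 6 heptanal mice alone, and Rps6 at 0.029 with unique counts. The rest came from leaving out a mouse or a pair, over which Taar7a ranged from -1.13 to 0.98, Stmn2 from -0.0480 to 0.73, Cftr from -0.25 to 1.94, Dnah5 from -0.17 to 0.90, Ccdc39 from -0.59 to 0.11, S100b from -0.46 to 0.054, Npas4 from -0.93 to 2.34 and Rps6 from -0.17 to 0.040. Of the 1248 ORs, 448 passed the filter on low counts and 280 had 0 counts in all 9 mice, for which low depth and absent expression cannot be told apart.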
